A study of Gallus gallus with 8 samples.

Results

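LIM, POU and EBF transcription factors and their cofactors, a set of genes known for setting the identity of neurons, were examined in sorted cells of the chick neural tube. Members were the rows of the deposited table whose gene symbol named an LHX, ISL, LMO1, LMO3, LMO4, LDB, POU, EBF, BARHL or PRDM gene or MNX1, with 1 probe set kept per symbol, the one with the highest mean over the 8 arrays. This gave 28 members of 13257 symbols, drawn from 54 probe sets of 38439 tested. They comprised 6 LIM homeodomain genes, 2 LIM-only genes, 2 LIM domain binding genes, 6 POU genes, 3 EBF genes, 8 PRDM genes and MNX1, and no row carried a BARHL symbol.

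All arrays came from white Leghorn embryos electroporated at trunk level, at Hamburger and Hamilton stages 10 to 11, with pBRE-tk-EGFP, a green reporter driven by a BMP-responsive element, and pCAGGS-IRES-H2B-RFP, a red nuclear marker of electroporated cells. Neural tubes were taken 24 h later from pools of nearly 30 embryos, and red cells that were also green (BRE_active) were sorted apart from red cells that were not (BRE_inactive). Each of 4 pools gave 1 array of each fraction, so each group had 4 arrays, and an array averages over many embryos and over all cell types of its fraction. The comparison asked which members differed between cells with and without an active BMP reporter.

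LIM homeodomain proteins bind DNA and act in complexes held together by the LDB cofactors, and the combination of LIM proteins in a newborn neuron helps to set its class. LIM-only proteins lack a DNA-binding domain and compete for the same LDB cofactors. POU proteins carry a paired POU-specific domain and homeodomain, EBF proteins (Olf/EBF, or COE) act in neuron differentiation and migration, and several PRDM zinc finger proteins mark progenitor domains of the spinal cord. Bone morphogenetic proteins come from the dorsal side of the neural tube, whereas motor neurons and several interneuron classes with LIM codes form ventrally.

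Of the 28 members, 1 was called higher in BRE_active cells (LMO4) and 0 were called lower by limma, with p-values adjusted over all 38439 probe sets and a threshold of 0.05. Over all symbols 2.21% were called in either direction, 1.55% higher and 0.656% lower. An unadjusted p under 0.05 was reached by 7 members, 3 of them higher and 4 lower, beside 17.0% of all symbols. A fit that pairs both fractions of a pool, by entering the pool as a blocking term (the paired fit, or the block), called LMO4 higher and 2 members, LMO3 and PRDM16, lower, beside 4.90% of all symbols higher, 2.56% lower and 7.47% in all in that fit. The sign of the difference was shared by all 4 pools in 13 members, beside 32.7% of all symbols. The median difference of the members was -0.08 on the log2 scale, with 17 of 28 below 0, and over all symbols it was -0.02, with 54.8% below 0. Over the 7 members with present calls on all arrays of a group, the median was 0.14. Each difference below is the log2 level in BRE_active minus that in BRE_inactive cells, given with its standard error (SE) from limma and 4 arrays per group.

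**Figure D1:**
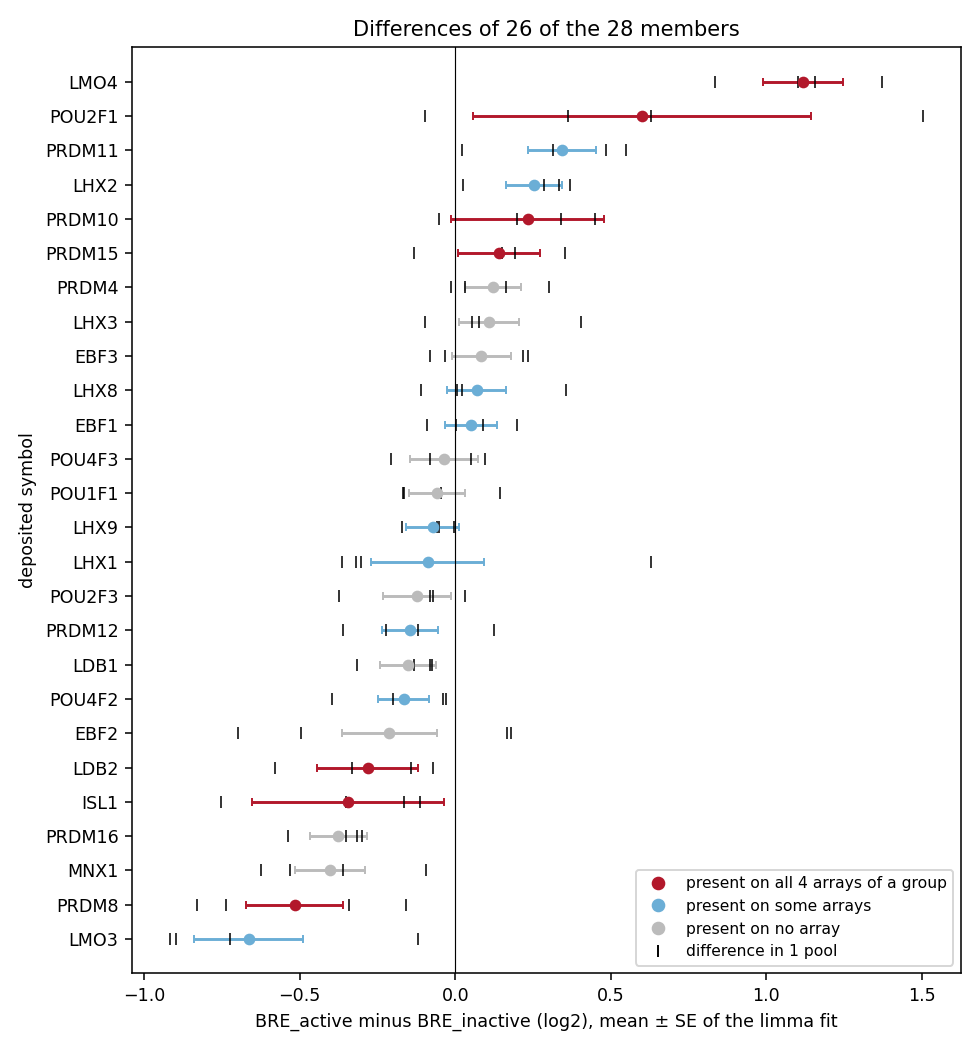
Difference of 26 of the 28 members on the log2 scale (point, with the SE of the fit as bar) and in each of the 4 pools (ticks), coloured by the number of arrays with a present call. LMO4, at 1.12, is the only member called on group alone, and LMO3 has the lowest value, -0.66. The bars come from that fit and do not take the pairing by pool into account.

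Most members were dim. Only 7 (25%) were called present on all 4 arrays of a group, beside 51.3% of all symbols, and these were LMO4, ISL1, LDB2, POU2F1, PRDM10, PRDM15 and the probe set labelled PRDM8. A further 12 (42.9%, beside 33.8% of all symbols) were present on no array, and 9 were present on some arrays. A probe set without a present call has only a bound on its level, so no fold is given for the members present on no array. Of the 7, ISL1 alone is a classical neuron identity factor, while POU2F1 is a widely expressed octamer-binding protein. The name of the set thus fits its rule better than it fits these 7. LHX1, LHX9, PRDM12, EBF1 and PRDM11 had present calls on 3 arrays of a group and are not among the 7.

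**Figure D2:**
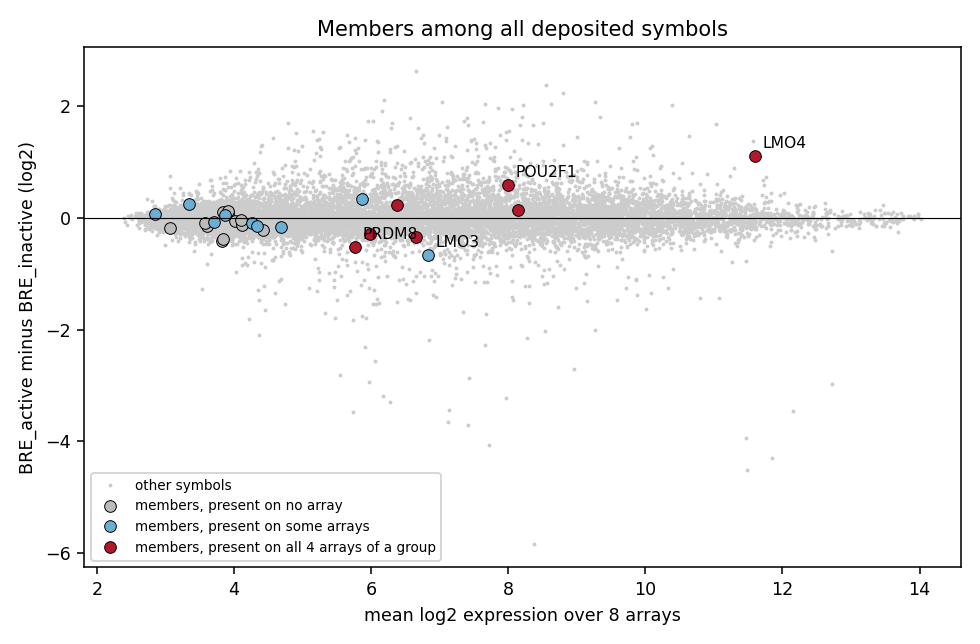
Difference against the mean log2 expression over 8 arrays for all deposited symbols (grey dots) and for the members (circles coloured by present calls). Most members lie among dim symbols near 0, and LMO4 lies among the brighter symbols at a difference of 1.12.

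Some symbols did not stand for the gene they name. Through the gene ID, 27 of the 28 members matched a RefSeq gene of assembly GRCg7b, and 24 kept their symbol. The probe set labelled PRDM8 belongs to ZNF488, a zinc finger gene outside the rule, that labelled POU2F3 belongs to CCDC160, and that labelled POU4F3 belongs to POU4F1L. The ID behind POU4F2 had no match. Without the probe sets of ZNF488 and CCDC160, 26 members remained, and LMO4 was again the only call on group alone.

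LMO4 encodes a LIM-only protein that binds LDB1 and other partners and is known in neural crest and in motor neuron and interneuron formation. Its probe set, assigned to chromosome 8 in the deposited table, read 11.06, 10.84, 11.40 and 10.85 in BRE_inactive pools 1 to 4. In BRE_active cells it read 12.16, 12.21, 12.24 and 12.01. The groups did not overlap, and every BRE_active array lay above every BRE_inactive array.

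LMO4 rose from 11.04 ± 0.26 (SD, n = 4) to 12.15 ± 0.10, a difference of 1.12 ± 0.13 (SE), or 2.17-fold (limma adjusted p = 0.00406). It was higher in 4 of 4 pools, by 1.10, 1.37, 0.84 and 1.16. A second LMO4 probe set, dimmer but also present on all 8 arrays, read 7.02 to 7.31 in BRE_inactive and 7.96 to 8.37 in BRE_active cells, a difference of 1.05 ± 0.11 (limma adjusted p = 0.0022). The call ended when pool 1 or pool 2 was left out. There limma gave an adjusted p of 0.0612 without pool 1 and 0.0604 without pool 2, while the difference stayed at 1.12 and 1.03. Far fewer symbols were called in those fits, 64 and 75 in place of 293. LMO4 stayed called without pool 3 and without pool 4, in fits that called 54 and 595 symbols.

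Of 8 neural crest markers measured, limma called 5 higher on the same arrays: SOX10, FOXD3, SNAI2, TFAP2B and EDNRB. SOX9, MITF and ETS1 were not called, at 1.06 ± 0.25, 0.39 ± 0.20 and -0.19 ± 0.11 (limma adjusted p = 0.0834, 0.423 and 0.464), and the paired fit added SOX9 (limma adjusted p = 0.00101). The mean log2 level of the 8 ran from 6.37 to 7.45 on BRE_inactive and from 8.12 to 8.78 on BRE_active arrays. All 8 had present calls on some array, but SOX9 only on 0 BRE_inactive and 1 BRE_active arrays and MITF on 1 of each group. Their part in the LMO4 difference was not tested, and in these bulk samples more cells of a type and more RNA per cell cannot be told apart.

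LMO3, the other LIM-only member, is a neural gene of the same family. It read 7.33, 7.27, 6.60 and 7.44 in BRE_inactive pools 1 to 4 and 6.43, 6.35, 6.48 and 6.72 in BRE_active. Values were lower in BRE_active cells in 4 of 4 pools, by little in pool 3, and the groups overlapped because BRE_inactive 3 lay below BRE_active 4.

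The LMO3 difference was -0.66 ± 0.18 and was not called by limma on group alone (adjusted p = 0.131). In the paired fit it was called lower (limma adjusted p = 0.0305). On group alone it was called without BRE_inactive 3, by -0.85 (limma adjusted p = 0.0129). That array held the lowest BRE_inactive value, so leaving it out had to widen the difference. LMO3 was called in none of the other 21 alternatives, where the limma adjusted p went up to 0.562. It was not called when the pool was a random block (limma adjusted p = 0.0549). LMO3 was present on 2 BRE_inactive and 0 BRE_active arrays, so its level in BRE_active cells is only bounded. Its BRE_active level was taken, array by array, as no lower than the dimmest probe set with 4 present calls in that group. This made it 1.58-fold lower, with all 4 BRE_inactive arrays counted at their measured level, present call or not. That floor lay no higher than any BRE_active value of LMO3, so it changed nothing and 1.58 is simply the measured fold. The floor is therefore no check on the detection limit, and the spread between arrays is not part of it. LMO3 and LMO4 thus lay on opposite sides of 0 in all 4 pools, but the difference between them was not tested.

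**Figure D3:**
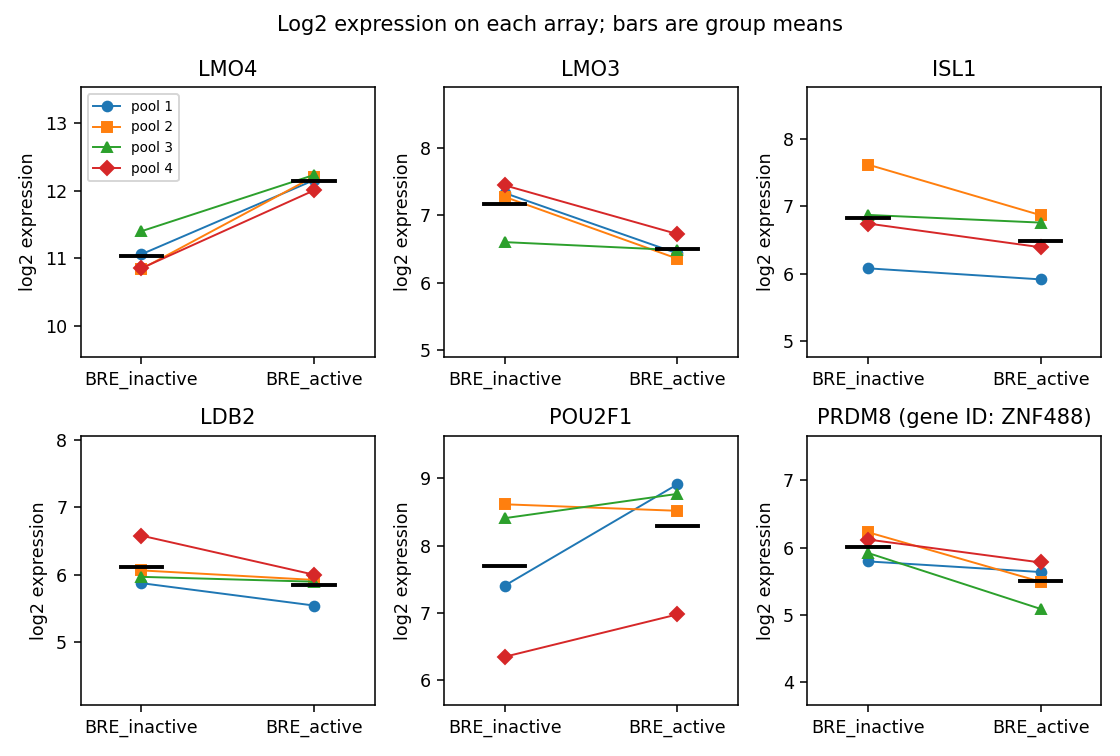
Log2 expression on each array for 6 members, with lines joining both fractions of a pool and bars at the group means; every panel spans the same number of log2 units. LMO4 separates the groups, whereas ISL1 and POU2F1 differ more between pools than between fractions.

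The LDB cofactors bridge LIM proteins, and 2 were measured. LDB2 was present on all 8 arrays and read 5.87, 6.06, 5.97 and 6.58 in BRE_inactive and 5.54, 5.92, 5.89 and 6.00 in BRE_active pools 1 to 4. It was lower in BRE_active cells in 4 of 4 pools, with overlapping groups, and the difference of -0.28 ± 0.16 was not called (limma adjusted p = 0.477). Its other probe set was present on no array. LDB1 was present on no array, with values between 3.42 and 3.83 (limma adjusted p = 0.485).

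Among LIM homeodomain genes, ISL1, which is needed for motor neurons and also marks dorsal interneurons and sensory neurons, was the only one present on all arrays of a group. It read 6.08, 7.62, 6.87 and 6.74 in BRE_inactive pools 1 to 4 and 5.91, 6.87, 6.76 and 6.39 in BRE_active. Pool 2 was the highest and pool 1 the lowest in both fractions, and the groups overlapped. The means of the pools spanned 1.25 log2 units, more than the difference of -0.35 ± 0.31 between fractions (limma adjusted p = 0.658).

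Within pools the ISL1 difference was -0.16, -0.75, -0.11 and -0.35, below 0 in 4 of 4. With the pool as a block its SE went from 0.31 to 0.12, and it was still not called (limma adjusted p = 0.142). A second ISL1 probe set, present on all 8 arrays, gave -0.35 ± 0.21 and was lower in 4 of 4 pools (limma adjusted p = 0.49).

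The other LIM homeodomain members were near the limit of detection. LHX1, a gene of several interneuron classes and lateral motor neurons, was detected on 3 BRE_inactive arrays but on 0 of BRE_active, and read 4.25, 4.67, 4.48 and 3.82 against 3.93, 4.31, 4.18 and 4.45. It was lower in pools 1 to 3 by 0.30 to 0.36 but higher by 0.63 in pool 4, and it was not called (limma adjusted p = 0.864). LHX9, of the most dorsal interneurons, was present on 3 BRE_inactive and 1 BRE_active arrays, with a difference of -0.07 ± 0.09. LHX2, a partner of LHX9 in those neurons, was present on 0 BRE_inactive and 1 BRE_active array and differed by 0.25 ± 0.09 (limma adjusted p = 0.262). LHX8, a forebrain gene, was present on 0 and 1 arrays, and LHX3, which pairs with ISL1 in motor neurons, on none.

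MNX1 (HB9), a homeobox gene of motor neurons, was also present on no array. Its signal read 4.10, 4.08, 3.74 and 4.21 in BRE_inactive and 3.47, 3.72, 3.65 and 3.68 in BRE_active pools 1 to 4. The groups did not overlap, and the signal was lower in 4 of 4 pools, but MNX1 was not called (limma adjusted p = 0.153, or 0.0678 in the paired fit). In all 5 members had groups that did not overlap, LMO4, MNX1, PRDM11, PRDM16 and the ZNF488 probe set, beside 8.98% of all symbols.

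No POU member was called in either fit, beside 2.21% of all symbols on group alone and 7.47% in the paired fit. An unadjusted p under 0.05 in limma on group alone was reached by 0 of 6, beside 17.0% of all symbols. With so few members, 0 is not far from these shares, and the 6 include the probe set of CCDC160. POU2F1 (OCT1), present on all 8 arrays, read 7.41, 8.61, 8.41 and 6.35 in BRE_inactive and 8.91, 8.52, 8.77 and 6.98 in BRE_active pools 1 to 4. Pool 4 was low in both fractions, and the pool means spanned 1.92 log2 units, against a difference of 0.60 ± 0.54 (limma adjusted p = 0.664). The difference was 1.50 in pool 1 and -0.10 in pool 2. With the pool as a block its SE was 0.22, at an unadjusted limma p of 0.024, and POU2F1 was still not called (limma adjusted p = 0.165).

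On the same arrays the 3-prime minus 5-prime signal of 3 control genes, which is larger for shorter or more degraded RNA, was also lowest in pool 4. Averaged over the 3 genes, this signal was 2.21 in BRE_inactive 4 and 2.41 in BRE_active 4, and ran from 2.60 to 3.24 on the other 6 arrays. The average was larger in BRE_active cells in 4 of 4 pools, by a mean of 0.326 log2 units. The signals of ef1a and gapdh were larger in every pool. That of actin was smaller in BRE_active cells in pool 1 (3.58 against 3.82) and pool 4 (3.00 against 3.09). The part of this RNA signal in the POU2F1 values, in the LMO4 call and in the other differences between fractions was not tested.

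Further POU members are tissue or neuron subtype genes: POU1F1 of the pituitary, POU4F2 of retinal ganglion and sensory neurons, and the probe sets labelled POU2F3 and POU4F3. POU4F2 was present on 1 BRE_inactive array, and the other 3 were present on none. Their differences ran from -0.17 for POU4F2 to -0.04 for the POU4F1L probe set, with limma adjusted p from 0.414 to 0.913.

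The 3 EBF genes were likewise not called, and 0 had an unadjusted p under 0.05 in limma on group alone, beside 17.0% of all symbols. For 3 genes, 0 is not far from that share. EBF1, present on 3 arrays of each group, lay between 3.69 and 3.96 on all arrays, a difference of 0.05 ± 0.08. EBF2 and EBF3 were present on no array, with limma adjusted p = 0.571 and 0.737. EBF2 had the widest spread of pool differences among them, from -0.70 in pool 3 to 0.18 in pool 4.

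PRDM proteins combine a PR domain with zinc fingers. PRDM15 and PRDM10, broadly expressed regulators, were present on all 8 arrays. PRDM15 read 8.06, 7.92, 8.28 and 8.01 in BRE_inactive and 8.21, 8.28, 8.47 and 7.88 in BRE_active pools 1 to 4, a difference of 0.14 ± 0.13 with overlapping groups (limma adjusted p = 0.675). A second PRDM15 probe set, also present on all 8 arrays, gave 0.24 ± 0.12 and was higher in 4 of 4 pools. That probe set was not called (limma adjusted p = 0.426, or 0.146 with the block). PRDM10 read 6.11, 6.72, 6.56 and 5.64 against 6.56, 6.67, 6.76 and 5.98. As with POU2F1, pool 4 was lowest in both fractions, and the difference was 0.23 ± 0.25 (limma adjusted p = 0.715).

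PRDM11 was present on 3 arrays of each group, and its 4 BRE_active values (5.94 to 6.12) lay above its 4 BRE_inactive values (5.50 to 5.92). The difference of 0.34 ± 0.11 was not called (limma adjusted p = 0.205). Its other probe sets gave -0.05 ± 0.13 and 0.15 ± 0.16, with overlapping groups, so the separation was seen on 1 of 3 probe sets. PRDM12, which marks progenitors of V1 interneurons and nociceptors, had 3 present calls in BRE_inactive and 1 in BRE_active cells and differed by -0.14 ± 0.09 (limma adjusted p = 0.511).

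PRDM16, a gene of neural progenitors, was called lower only with a pool term (limma adjusted p = 0.0989 on group alone, 0.0429 in the paired fit). Its signal read 4.09, 3.85, 4.00 and 4.18 in BRE_inactive and 3.74, 3.55, 3.69 and 3.65 in BRE_active pools 1 to 4, without overlap. It was present on no array, and its other 2 probe sets were not called with the block (limma adjusted p = 0.446 and 0.856). PRDM4 was present on no array (limma adjusted p = 0.587).

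The probe set labelled PRDM8, which belongs to ZNF488, read 5.80, 6.23, 5.92 and 6.12 in BRE_inactive and 5.64, 5.49, 5.09 and 5.78 in BRE_active pools 1 to 4. Each BRE_active array lay below each BRE_inactive array, although BRE_active 4 and BRE_inactive 1 nearly met. The difference of -0.52 ± 0.16 was not called (limma adjusted p = 0.186, or 0.052 in the paired fit).

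**Figure D4:**
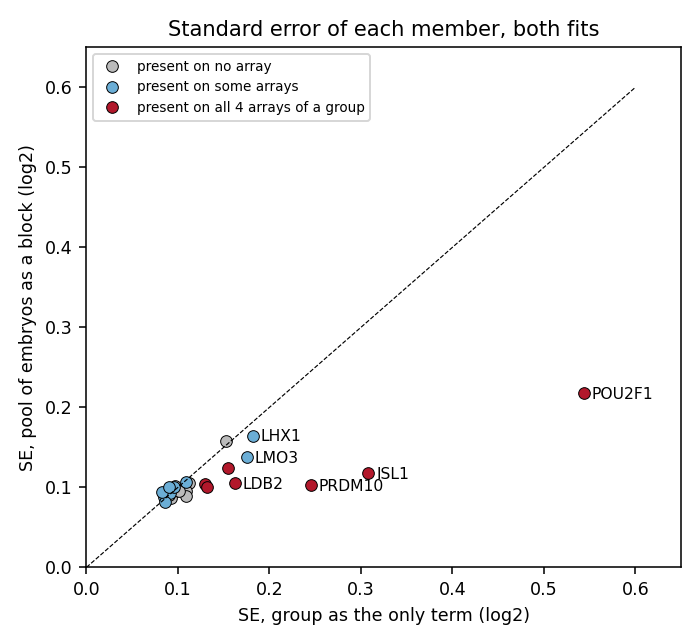
SE of each member's difference in the fit on group alone (x axis, log2) and in the paired fit (y axis, log2); the dashed line marks equal values. POU2F1, ISL1 and PRDM10 lie furthest below the line, with SEs of 0.54, 0.31 and 0.25 on group alone and 0.22, 0.12 and 0.10 with the block.

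Pools thus differed unevenly among the members. The SE on group alone was 2.62 times that with the block for ISL1, 2.50 times for POU2F1, 2.39 times for PRDM10 and 1.55 times for LDB2. For LMO4 it was 1.25 times, and its pool means spanned 0.39 log2 units, less than its difference between fractions.

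Family members that the deposited symbols hide were looked up after the values had been seen. ISL2, deposited as ISLET-2 and a partner of ISL1 in motor neurons, was present on 2 BRE_inactive and 0 BRE_active arrays. It read 3.99, 4.61, 4.08 and 4.39 against 3.62, 3.79, 3.87 and 3.94, lower in 4 of 4 pools without overlap. ISL2 was 1.38-fold lower as measured, and the floor used for LMO3 lay too low to change this. ISL2 was not called (limma adjusted p = 0.193, or 0.0505 with the block). PRDM2, deposited under a locus number, was present on all 8 arrays and differed by 0.80 ± 0.31 (limma adjusted p = 0.305, or 0.0154 with the block), while its dimmer probe set gave 0.36 ± 0.16 (limma adjusted p = 0.372). BRN-3A (POU4F1) and LDB3 were present on no array. With symbols updated through the gene ID there were 29 members, and LMO4 was again the only one called on group alone. The rule does not name LMX1B, a LIM homeodomain gene that was called higher and is described with the related genes.

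Genes that work with these factors gave the following counts in the same fit, beside 2.21% of 13249 genes called and a median difference of -0.02 over them. Counts from the paired fit stand beside the larger share it called, 7.47% of all symbols, with 4.90% higher and 2.56% lower. Of 11 measured genes in a list of LIM complex partners, 1 rose and 10 were not called, with a median of -0.04. That list includes LMX1B and LMO2, which are LIM genes themselves. The gene that rose was LMX1B, a LIM homeodomain gene of the roof plate and dorsal interneurons that the rule does not name. It had present calls on 3 BRE_active arrays and on 0 of the others. As measured it was 2.13-fold higher, and a floor of the kind used for LMO3 lay too low to change this. The difference was 1.09 ± 0.18 (limma adjusted p = 0.0228). SSBP3, whose product stabilises LDB proteins, differed by -0.17 ± 0.10, and RLIM, a ubiquitin ligase that acts on LDB proteins, by 0.15 ± 0.08, and neither was called. TAL1, another of the partners, was present on all 8 arrays and differed by -0.49 ± 0.11, lower in 4 of 4 pools without overlap. TAL1 was not called either (limma adjusted p = 0.0834, or 0.0553 with the block). Red blood cell genes, described below, were also lower in BRE_active cells, and their part in the TAL1 value was not tested.

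Of 12 measured motor neuron genes 3 fell and 9 were not called, with a median of -0.26, and in the paired fit 5 were called lower and 1 (SLIT2) higher. The 3 were the progenitor factors OLIG2, NKX6-1 and NKX6-2, at -2.14 ± 0.23, -2.70 ± 0.41 and -2.86 ± 0.27. The OLIG2 probe set was deposited as OLIG3, on chromosome 3, and is named OLIG2 here only through its gene ID. Which of these genes it measures was not tested. Among genes of the mature cells, CHAT and SLC5A7 were present on no array, and SLC18A3, the vesicular acetylcholine transporter, on 2 BRE_inactive and 0 BRE_active arrays (limma adjusted p = 0.0598, or 0.0216 with the block). The mean log2 level of the 12 ran from 6.53 to 6.88 on BRE_inactive and from 5.76 to 6.30 on BRE_active arrays. These progenitor factors stood beside the motor neuron members ISL1, LHX3 and MNX1, none of which was called. Of these members, LHX3 and MNX1 were present on no array. The ISL1 and MNX1 signals were lower in BRE_active cells in 4 of 4 pools, and the LHX3 signal was higher in 3 of 4.

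Of 13 measured ventral interneuron genes 2 fell, 1 rose and 10 were not called, with a median of -0.04, and the paired fit called 3 lower and 1 higher. VSX1, a gene of V2 interneuron precursors, read 6.77 to 7.58 in BRE_inactive and 4.43 to 5.17 in BRE_active cells. It was present on 4 and 0 arrays. As measured it was 4.94-fold lower, and the floor used for LMO3 lay too low to change this. The difference was -2.30 ± 0.20 (limma adjusted p = 0.000971). The progenitor gene DBX2 fell by 2.27 ± 0.16, and FOXD3, shared with neural crest, rose by 2.05 ± 0.33.

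Of 10 measured dorsal interneuron genes 2 rose (FOXD3 and LMX1B), 1 fell and 7 were not called, with a median of -0.19, and the paired fit called 2 higher and 2 lower. The gene that fell was the homeobox gene GBX2, by 0.74 ± 0.14 (limma adjusted p = 0.0329). Of 9 measured sensory neuron genes limma called 0, with a median of -0.02 and 7 of them present on no array. An unadjusted p under 0.05 was reached by 1 of the 9, beside 17.0% of all symbols. EYA2 and NEUROD4 had the smallest p, at 0.58 ± 0.14 and -0.21 ± 0.11 (limma adjusted p = 0.0998 and 0.445), and NEUROD4 was present on no array. The paired fit called EYA2 higher (limma adjusted p = 0.0171) and no other gene of this list.

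Of 18 measured genes shared by most neurons 5 fell and 13 were not called, with a median of -0.38, and the paired fit called 7 lower. STMN2, NEFM and NEFL of the cytoskeleton had differences of -1.19 ± 0.17, -1.02 ± 0.19 and -1.11 ± 0.22. The helix-loop-helix genes NHLH1 and NHLH2 of newborn neurons had -1.18 ± 0.22 and -1.18 ± 0.22. NHLH2 was present on 4 BRE_inactive and 0 BRE_active arrays (limma adjusted p = 0.0337). As measured NHLH2 was 2.27-fold lower, and the floor used for LMO3 lay too low to change this. Of 13 measured progenitor genes, all of them present on all arrays of a group, 2 fell (SOX3 by 1.09 ± 0.11 and PAX6 by 1.11 ± 0.21) and 11 were not called, and the paired fit called 5 lower. The sorted cells thus had RNA of all 13 progenitor genes measured and of part of the genes shared by most neurons. Of those 18, 10 were present on all arrays of a group and 3 on no array.

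**Figure D5:**
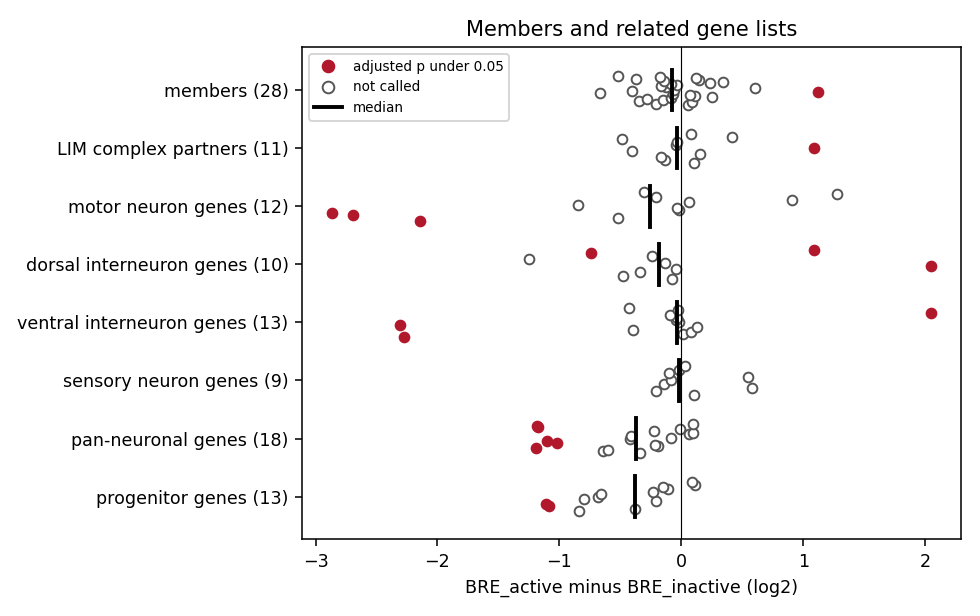
Differences on the log2 scale for the members and 7 lists of related genes, each point a gene, with a bar at the median. Filled points have an adjusted p under 0.05 on group alone, and the number measured is in parentheses. The motor neuron and ventral lists hold called genes below -2, where no member lies, and the pan-neuronal list has 5 called genes, all below 0.

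Red blood cell genes differed strongly between the same arrays. Of 7 measured, 6 fell and 1 was not called (7 were called lower in the paired fit), and their mean log2 level ran from 11.07 to 13.05 on BRE_inactive and from 6.43 to 9.56 on BRE_active arrays. Of the 7 somite and mesenchyme, 4 notochord, 5 surface ectoderm and 5 endothelium genes measured, limma called 0 on group alone. An unadjusted p under 0.05 was reached by 1, 1, 1 and 2 of them, beside 17.0% of all symbols. The smallest limma adjusted p was 0.142, for TBXT of the notochord. The paired fit called TBXT higher, at 0.91 (limma adjusted p = 0.000784), and KDR of the endothelium, at 0.82 (limma adjusted p = 0.0339), each higher in 4 of 4 pools. It called 0 of the somite and surface ectoderm genes, with 4 and 1 of them at an unadjusted p under 0.05. The mean log2 level of the somite list ran from 5.95 to 6.50 on BRE_inactive and from 5.54 to 7.29 on BRE_active arrays. The part of these cell types in the values of the members was not tested.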

How the data were processed

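RNA from 8 sorted samples was measured on Affymetrix arrays. Each probe set has a log2 value on each array in the table the authors deposited. The table also holds group means and SDs, the authors' deposited adjusted p-value and their counts of present, marginal and absent calls. Per the labels, standard Affymetrix labelling with biotin was used. For background correction, normalization and detection calls, the methods were not given in the sources used here. Other deposited columns, 8 that hold each array's call letter, were not used. The SDs are other values that the authors deposited and were recomputed here.

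The 96 control probe sets were left out, and all other probe sets were fitted with limma 3.58.1 in R 4.3.3, on group alone, with Benjamini-Hochberg adjusted p-values and a threshold of 0.05. The same fit with the control probe sets kept in returned the authors' deposited adjusted p-value within 6.13e-13. Without them, the fit was tested on simulated data. The pool number pairs the arrays by design, since both fractions came from the same embryos. Deviations of same-numbered arrays correlated at -0.141, 0.203, 0.498 and 0.584 in pools 1 to 4. Array medians lay between 4.24 and 4.32, and pairs of arrays correlated between 0.974 and 0.996. The number of arrays limits the precision.

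Every member is counted, and 2 of the 28 are not reported here by name. Per-array values are given for members called in either fit or, if present on all arrays of a group, differing by at least 0.5, and for others where useful. From each related list the called genes are named, or else the 2 with the smallest p. List genes were matched by symbol after an update through the gene ID. The members and lists were chosen with earlier results of these data known. No sequences were used here.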

Additional observations from a re-analysis of the deposited data

Results flagged for a closer look

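In 2 of 56 sets of 4 arrays (28 members, 2 groups), 1 array stood apart from the other 3 by Dixon's test at the 95% level, where chance gives about 1 in 20. LHX9 read 3.56 on BRE_active 2, below 3.70 to 3.72 on the other BRE_active arrays. The probe set labelled POU2F3, which belongs to CCDC160, read 4.03 on BRE_inactive 2, below 4.21 to 4.24 on the others. Both probe sets are dim, and neither was called.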

How the results depend on the processing

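Over 24 alternatives, LMO4 was the only member called higher in each fit that called any. The count of members called higher went from 1 to 0 without pool 1 or pool 2 and ran from 0 to 1 over the fits without an array or pool. The count called lower went from 0 to 2 with the pool as a replicate block (LMO3 and PRDM16) and to 1 with the pool as a random block (PRDM16), and ran from 0 to 1 without an array or pool. The block changed the call of no other member. The median difference of members went from -0.0777 to 0.141 when only probe sets present on all arrays of a group were kept, which left 7 members. The difference changed sign for LHX1 (-0.329 to 0.0332), EBF1 (-0.00115 to 0.0967, with -0.000287 without pool 3), POU4F3 (-0.109 to 0.0544) and LHX8 (-0.0274 to 0.128) when an array or pool was left out. It also did for PRDM11 (-0.0496) with the probe set of most present calls. None of these was called in any fit. The cause was not tested. The updated symbols and the removal of other families were chosen after seeing the data. Background correction could not be varied from summarised values. Members without present calls have no measured level, which limits 12 of the 28.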
